A study of Oryza sativa with 12 samples.

Results

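Sucrose reaches a sink tissue through the phloem and is then moved across membranes and cut before it can be used, and 10 rice genes for these steps are described here in the abscission zone, the cell layer at which the grain parts from its stalk. They are the sucrose transporters SUT1, SUT2 and SUT4, the cell wall invertases CIN1, CIN2 (also called GIF1) and CIN3, and the sucrose synthases SUS1 to SUS4. These were chosen by locus ID out of 55986 IDs. No measured value entered the rule, but earlier results of these data were known when it was set. All 12 RNA sequencing libraries came from abscission zones taken on the day of flowering, each from a pool of 5 field-grown plants, in 4 groups of 3. The mutant ossh1 was set against a wild type called WT, and the mutant oscct against another wild type called CK. The series title names OsCCT22, OsSh1 and OsCAD2 as a module for shattering. The alleles, the cultivars and which of the named growing places each library came from are not given in the sources used here, so line background and place cannot be told apart from the mutations.

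As background, SUT proteins carry sucrose together with protons: SUT1 sits in the plasma membrane and serves phloem transport, and SUT2 sits in the vacuole membrane and releases stored sucrose. Cell wall invertases split sucrose outside the cell into glucose and fructose, which keeps up the gradient for unloading. CIN2 is known for its part in grain filling, and CIN3 as an anther invertase. Sucrose synthases split sucrose inside the cell with UDP, giving fructose and UDP-glucose, the substrate of cellulose synthesis. SUS3 and SUS4 are known chiefly from the developing grain, and SUS2 from most tissues.

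The WT libraries held 30382846 to 32055561 counts and the ossh1 libraries 27044341 to 28600944. The CK and oscct libraries are known only from a table that lists 11688 IDs, nearly all with a difference between the groups, so their depth is unknown. The targeted gene of ossh1, OsSh1 (LOC_Os03g44710), had 2390, 2377 and 2664 counts in WT and 59, 34 and 32 in ossh1. In oscct the log2 fold change of its listed rows was -0.77 (SE 0.04, adjusted p = 3.97e-11, edgeR), and -0.66 (SE 0.07) for the most abundant row. The summed counts of OsSh1 in CK and oscct were not whole numbers, so some reads were shared with rows outside the sum. Its change as a whole gene in oscct is not known. OsCCT22 was not analysed here. Of 5 genes known for abscission zone identity, OsSh1, qSH1, SH5 and SHAT1 were above the count filter in WT, while SH4 had 2 or 3 counts per WT library. On the log2 scale, qSH1 (LOC_Os01g62920) changed by 0.27 (SE 0.06, adjusted p = 0.000376, edgeR) in ossh1 and -0.36 (SE 0.04, adjusted p = 1.53e-07, edgeR) in oscct. SHAT1 (LOC_Os04g55560) changed by 0.67 (SE 0.05, adjusted p = 2.31e-09, edgeR) in oscct, and neither it nor SH5 passed the test in ossh1. Of 8 anther genes, 4 passed the filter in the ossh1 comparison and summed, in counts scaled to a common library size (CPM), to 78.2 to 79.8 in the WT libraries and 39.3 to 43.9 in the ossh1 libraries. LOC_Os10g33250 carried most of that sum, and LOC_Os11g37280 was at 0 in all 6 libraries. In oscct, LOC_Os10g33250 alone of the 8 was listed, and it was higher, at 1.48-fold. All 9 genes of photosynthesis were lower in both mutants, with sums of 3558 to 3633 for WT against 2297 to 2458 CPM for ossh1, and of 5284 to 5363 for CK against 2768 to 2854 CPM for oscct. Of all tested IDs, 29.1% were lower in ossh1 and 50.3% in oscct, where 99.2% passed in either direction. The CK and oscct counts of SHAT1, LOC_Os10g33250 and several of the 9 were likewise not whole numbers, so their oscct values are those of listed rows. In bulk tissue, fewer cells of a type and less RNA per cell cannot be told apart, and the part of these markers in the results below was not tested.

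In ossh1, the sucrose synthases split: SUS1 fell to 0.36 of its WT level and SUS3 to 0.553, SUS4 rose 1.35-fold, and SUS2 did not pass the test. SUT1 fell slightly while SUT2 and SUT4 rose, and neither tested invertase passed. Of the 9 members with enough counts to test, 3 were higher and 3 lower at an adjusted p of 0.05, and the groups did not overlap for the same 6. Among all 22669 IDs tested, 58.3% passed, 29.2% higher and 29.1% lower, and the groups did not overlap in 62.3%, so the members' share is near that of the whole table. Only SUS1 changed at least 2-fold, beside 12.9% of all tested IDs. The median log2 fold change was -0.03 over the 9 tested members and -0.012 over all tested IDs.

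**Figure D1:**
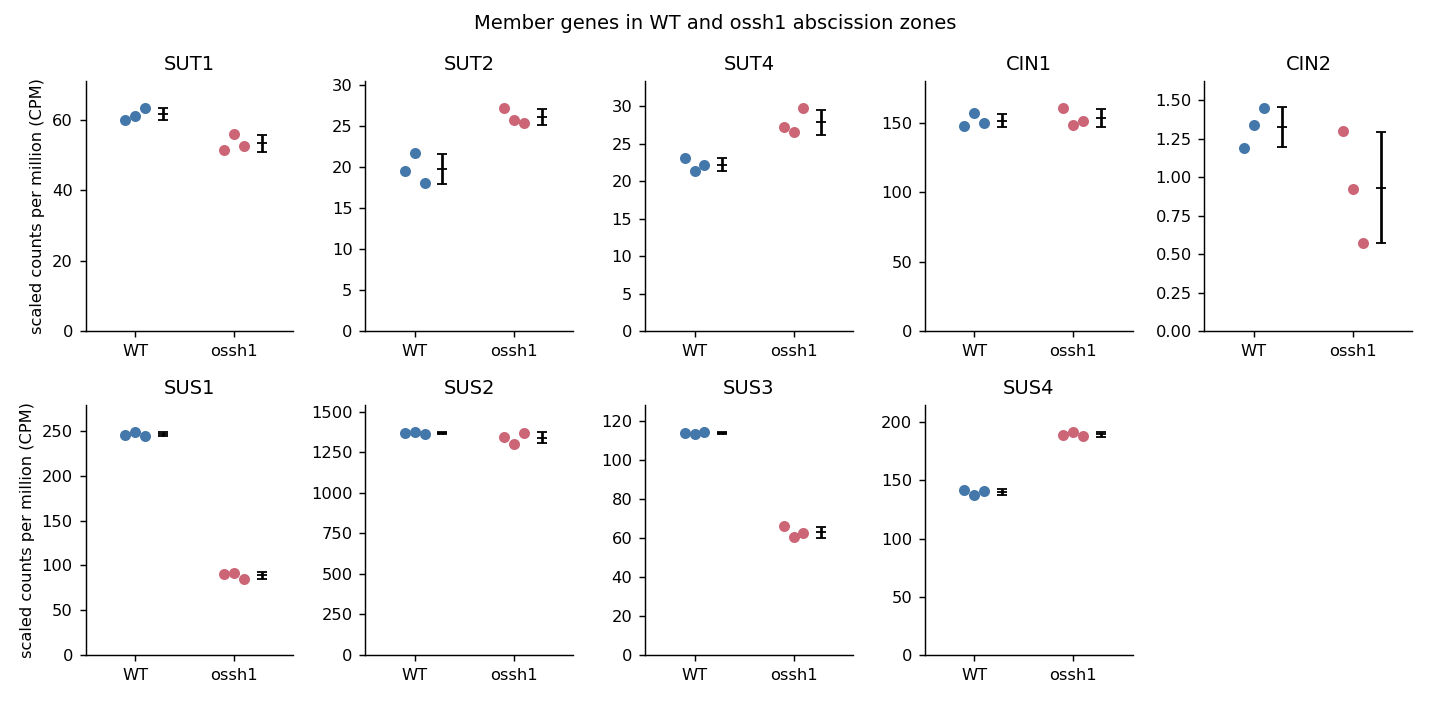
Level in CPM (vertical axis from 0, a different range in each panel) of the 9 members with enough counts to test, in the 3 WT and 3 ossh1 libraries; points are libraries, and black bars are mean and SD. SUS1 averages 247 CPM for WT against 89 CPM for ossh1, SUS3 is also lower, SUS4 is higher, and the SUS2, CIN1 and CIN2 libraries of the groups overlap.

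Of the synthases, SUS1 (LOC_Os03g28330) changed most among the members tested in ossh1. It was at 246, 249.7 and 245 CPM in the WT libraries and 90.7, 91.5 and 84.7 CPM in the ossh1 libraries. Every ossh1 library lay far below every WT library (log2 fold change -1.47, SE 0.04, adjusted p = 7.52e-32, edgeR quasi-likelihood test, p adjusted by Benjamini-Hochberg over all tested IDs). A change this large was found for 6.59% of all tested IDs. SUS3 (LOC_Os07g42490) was at 114, 113 and 114 CPM in the WT libraries and 66, 60.4 and 62.6 CPM in the ossh1 libraries. Its groups did not overlap either (log2 fold change -0.86, SE 0.04, adjusted p = 4.16e-21, edgeR). SUS4 (LOC_Os03g22120) went the other way, with 142, 137 and 141 CPM in the WT libraries and 189, 192 and 188 CPM in the ossh1 libraries. All 3 mutant libraries were above all 3 controls (log2 fold change 0.44, SE 0.03, adjusted p = 1.11e-14, edgeR).

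SUS2 (LOC_Os06g09450) was at 1368, 1377 and 1361 CPM in the WT libraries and 1343, 1303 and 1371 CPM in the ossh1 libraries, and the highest ossh1 library lay within the WT range. The log2 fold change of -0.03 (SE 0.02, approximate 95% interval -0.08 to 0.02) had an adjusted p of 0.274 in edgeR. It passed the test when library totals alone set the scale (-0.13, adjusted p = 2.94e-05, edgeR) and when ossh1 replicate 3 was left out (-0.05, adjusted p = 0.0293, edgeR). Ratios of counts within one library need no scaling between libraries, and the pairs given here were chosen after the values were seen. The SUS1 to SUS2 count ratio was 0.179, 0.181 and 0.18 in WT and 0.0675, 0.0702 and 0.0618 in ossh1. The SUS4 to SUS2 count ratio was 0.104, 0.0997 and 0.103 in WT and 0.141, 0.147 and 0.137 in ossh1. SUS1 thus lost and SUS4 gained relative to SUS2 in each ossh1 library. These ratios do not compare levels of the proteins' transcripts, since gene length was not taken into account. The 4 synthases together came to 1861 to 1878 CPM in the WT libraries against 1647 to 1706 CPM in the mutant, most of it SUS2.

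Of the transporters, SUT1 (LOC_Os03g07480) was at 60, 61.2 and 63.4 CPM in the WT libraries and 51.3, 56.1 and 52.5 CPM in the ossh1 libraries. The fall was small but the groups did not overlap (log2 fold change -0.21, SE 0.05, adjusted p = 0.000313, edgeR). SUT2 (LOC_Os12g44380) was at 19.5, 21.7 and 18.1 CPM in the WT libraries and 27.2, 25.7 and 25.4 CPM in the ossh1 libraries, with every mutant library above every control (log2 fold change 0.40, SE 0.07, adjusted p = 8.98e-06, edgeR). SUT4 (LOC_Os02g58080), a further sucrose carrier of the family, was at 23.1, 21.4 and 22.2 CPM in the WT libraries and 27.2, 26.6 and 29.8 CPM in the ossh1 libraries. It was likewise higher without overlap (log2 fold change 0.33, SE 0.07, adjusted p = 7.24e-05, edgeR). The SUT1 to SUT2 count ratio was 3.08, 2.82 and 3.5 in WT and 1.89, 2.18 and 2.06 in ossh1, lower in every mutant library.

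Of the cell wall invertases, CIN1 (LOC_Os02g33110) was at 148, 157 and 149.6 CPM in the WT libraries and 161, 148 and 151 CPM in the ossh1 libraries. The groups overlapped, and the log2 fold change was 0.02 (SE 0.04, approximate 95% interval -0.05 to 0.09, adjusted p = 0.673, edgeR). It took the other sign with library totals (-0.08) and without ossh1 replicate 1 (-0.01), and passed the test in neither. CIN2 (LOC_Os04g33740) had few reads, with 38, 42 and 48 counts in WT and 34, 24 and 16 in ossh1. Its log2 fold change of -0.51 (SE 0.31, approximate 95% interval -1.12 to 0.09) had an adjusted p of 0.156 in edgeR, which became 0.0479 with -0.83 when ossh1 replicate 1, the highest mutant library, was left out. Without ossh1 replicate 3, the lowest, it was -0.25 (adjusted p = 0.527, edgeR). CIN3 (LOC_Os04g33720), the anther invertase, had 2, 2 and 0 counts in WT and 0, 0 and 1 in ossh1, too few to test or to give a fold. CIN2 and CIN3 carry close serial numbers on chromosome 4 by the convention of the IDs, and the assignment of reads that match several family members is not stated.

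In oscct, the 3 transporters were lower, SUT1 at 0.758, SUT2 at 0.577 and SUT4 at 0.753 of the CK level. CIN1 was 1.29-fold, SUS2 1.58-fold and the listed rows of SUS1 6.75-fold higher, and SUS4 was at 0.655 of the CK level. Of the 10 members, 8 are listed in the oscct table and 7 had enough counts to test, of which 3 were higher and 4 lower. The table lists only part of the IDs, by a step that is not stated, and 99.2% of its 11518 tested IDs passed, 48.9% higher and 50.3% lower, with no overlap between groups in 98.3%. That these 7 passed without overlap therefore says nothing particular about them, and only sizes and directions are described. SUS1 alone changed at least 2-fold, beside 26.9% of the tested IDs. CIN2 and CIN3 are not listed, which does not say how they behaved.

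The rows behind these values matter, because 5 of the 8 listed members have several rows and the estimated counts were divided among them. SUS1 has 3 rows: row 1 held 161.95, 116.8 and 139.22 estimated counts in CK against 1244.13, 1221.48 and 1250.95 in oscct. Row 2 held 36.3, 83.79 and 60.95 against 270.46, 197.17 and 168.36. Row 3 was at 0 in all CK libraries and at 3.73, 3.75 and 11.44 in oscct. All 3 rows were thus higher in every mutant library. Fitted separately, row 1 changed by 3.08 (SE 0.08) log2 units and row 2 by 1.73 (SE 0.26). The sum therefore combines rows that changed by different amounts. Summed and expressed as CPM of the listed counts only, SUS1 was at 15.9, 16.5 and 15.9 CPM in the CK libraries and 114, 106 and 105 CPM in the oscct libraries (log2 fold change 2.76, SE 0.06, adjusted p = 3.5e-16, edgeR). The summed rows came to no whole number of reads, within 0.02, in any library, so some SUS1 reads were shared with rows outside the sum. The sums of SUT2, CIN1 and SUS2 were likewise whole in 0 of 6 libraries, and that of SUT1 in 1. For these 5 members a row that is not listed could hold more reads, so their values in oscct are those of the listed rows and the change of the whole gene is not known from these files. The sums of SUT4, SUS3 and SUS4 were whole, but a whole sum does not exclude an unlisted row with reads of its own. Their values in oscct are therefore also those of the listed rows.

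SUS2 was at 1802, 1828 and 1717 CPM in the CK libraries and 2850.4, 2766 and 2840.3 CPM in the oscct libraries (log2 fold change 0.66, SE 0.03, adjusted p = 1.04e-12, edgeR), and its first row carried nearly all of the counts. SUS4 rows were divided unevenly between libraries. In CK its row 1 held 9385.09, 8320.08 and 8472 estimated counts and its row 3 held 9075.99, 9906.2 and 10427.59. In oscct row 1 held 5880.77, 7035.64 and 6287.48 and row 3 held 7131.23, 5930.19 and 7110.86. The sums were steadier than the rows and whole within 0.02 in all 6 libraries, at 18485.99, 18266 and 18941 in CK and 13012, 12986.01 and 13405 in oscct. The fall of SUS4 is that of the sum (1494 ± 13.1 CPM for CK against 979 ± 6.34 CPM for oscct (SD, n = 3), log2 fold change -0.61, SE 0.02, adjusted p = 4.52e-13, edgeR). The SUS4 to SUS2 count ratio was 0.822, 0.818 and 0.877 in CK and 0.343, 0.352 and 0.347 in oscct, lower in every mutant library. SUS3 had 2, 1 and 0 counts in CK and 7, 15 and 6 in oscct. These 3 and 28 counts gave a ratio of 8.64 with a 95% counting interval of 2.67 to 44.4 (exact binomial, counting error only), at too low a level to pass the filter.

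**Figure D2:**
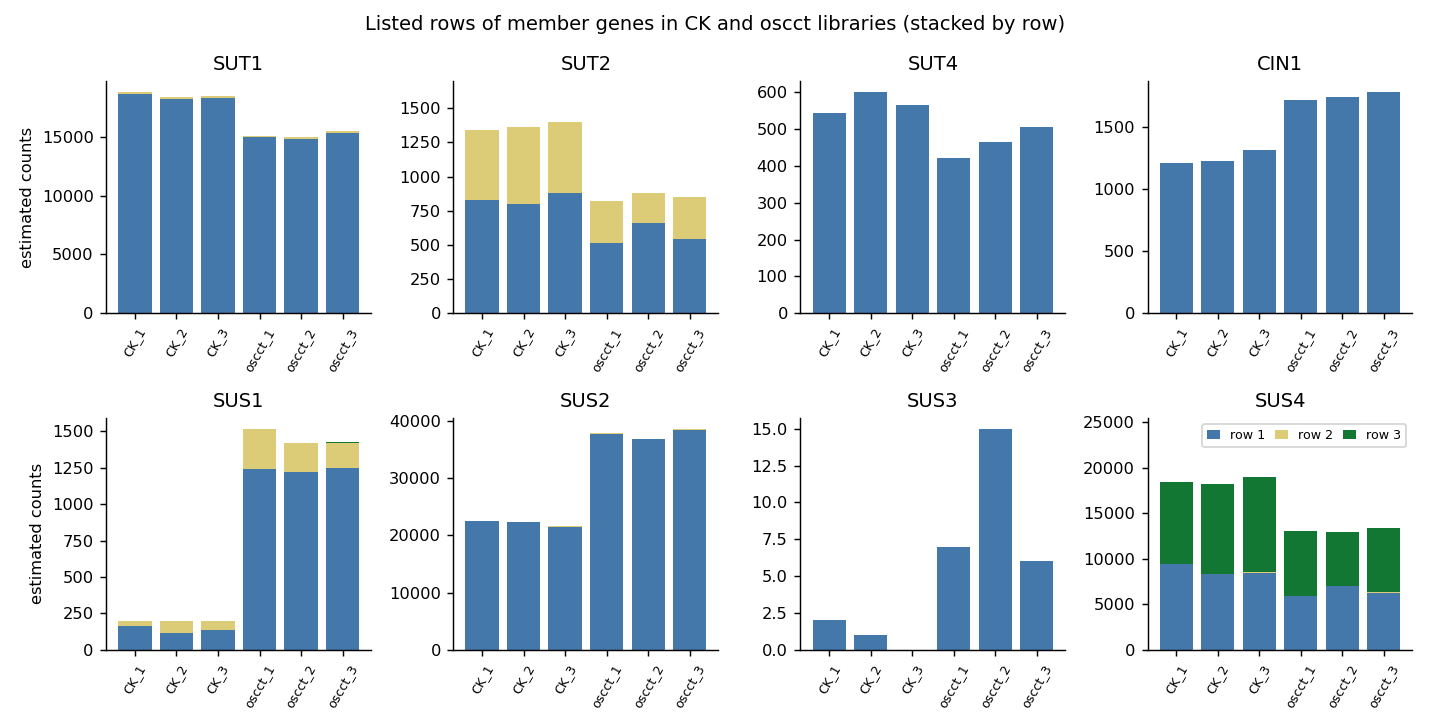
Estimated counts (vertical axis from 0, a different range in each panel, not scaled between libraries) of the 8 members listed in the oscct table, with 1 bar per library for 3 CK and 3 oscct libraries, stacked by the rows of an ID in file order. SUT1, SUT2, SUT4 and SUS4 are lower in oscct, CIN1, SUS1, SUS2 and SUS3 are higher, and SUS3 does not exceed 15 counts.

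SUT1 was at 1508, 1506 and 1469 CPM in the CK libraries and 1137, 1122 and 1138 CPM in the oscct libraries, with the groups apart (log2 fold change -0.40, SE 0.02, adjusted p = 1.28e-10, edgeR). SUT2 was at 108, 112 and 111 CPM in the CK libraries and 61.9, 66 and 62.6 CPM in the oscct libraries. Both of its rows were lower in oscct when fitted separately, with log2 fold changes of -0.62 (SE 0.08) and -1.01 (SE 0.12), and the sum gave -0.79 (SE 0.04, adjusted p = 4.19e-11, edgeR). SUT4, listed in 1 row of whole numbers, was at 43.5, 49.2 and 45.1 CPM in the CK libraries and 31.6, 34.8 and 37.2 CPM in the oscct libraries (log2 fold change -0.41, SE 0.07, adjusted p = 3.26e-05, edgeR). The SUT1 to SUT2 count ratio was 14, 13.5 and 13.2 in CK and 18.4, 17 and 18.2 in oscct, higher in every mutant library. CIN1, the only invertase member listed, was at 97.2, 101 and 105 CPM in the CK libraries and 129, 130.5 and 131 CPM in the oscct libraries (log2 fold change 0.37, SE 0.04, adjusted p = 1.98e-07, edgeR). The directions of these 4 genes and of SUS1, SUS2 and SUS4 held with RLE scaling and with listed totals. The median over the whole table was -0.06 and 0.08 under these, in place of -0.088. Sizes moved with the scale: listed totals gave -0.23 for SUT1, -0.63 for SUT2, -0.24 for SUT4 and 0.54 for CIN1. For SUS1, SUS2 and SUS4 they gave 2.92, 0.83 and -0.44. The SE of a fit does not include this dependence.

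The changes in the mutants were compared in one model of all 12 libraries. For 4 members the mutants went opposite ways with both changes past their tests: SUS1 fell in ossh1 and its listed rows rose in oscct, and SUT2, SUT4 and SUS4 rose in ossh1 and fell in oscct. SUT1 fell in both. Of the 10734 IDs tested in both comparisons, 42.3% were called in opposite directions, so opposite calls were common in the whole table. Of the 7 members tested in both comparisons, all 7 had changes that differed between the mutants at an adjusted p of 0.05, 3 with oscct above ossh1 and 4 below. The same held for 80.4% of the 11643 IDs tested for the difference, 40.8% above and 39.5% below. These 11643 include IDs that were not among the 10734 tested in both comparisons, so the sets are not alike. SUS3 is left out of the 7 members, since it passed the filter only through WT and ossh1. With library totals the SUT1 difference turned to 0.07 and did not pass (adjusted p = 0.148, edgeR). The oscct change minus the ossh1 change was 4.23 (SE 0.07, adjusted p = 2.16e-25, edgeR) log2 units for SUS1. For SUS4 the difference was -1.05 (SE 0.04, adjusted p = 2.03e-18, edgeR). The transporters gave -1.20 (SE 0.08, adjusted p = 1.51e-12, edgeR) for SUT2 and -0.74 (SE 0.10, adjusted p = 2.52e-07, edgeR) for SUT4. The mutants share no control libraries, and WT and CK were counted into different tables, so levels are not compared between them.

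**Figure D3:**
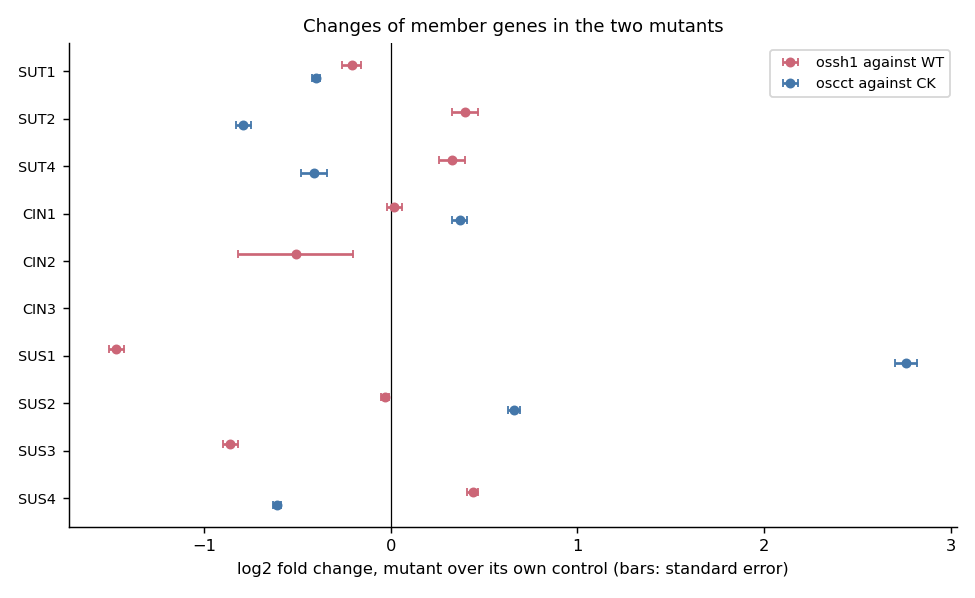
Log2 fold change of each member (rows) in ossh1 against WT and in oscct against CK, with bars for the standard error; positive values are higher in the mutant, and CIN3 and members not listed or too low in a table have no point. SUS1 lies at -1.47 in ossh1 and 2.76 in oscct, and SUT2, SUT4 and SUS4 also lie on opposite sides of 0.

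Another 31 IDs of sucrose use were read from the same fits: other transporters, invertases and synthases, sucrose phosphate synthases, hexokinases, fructokinases and UDP-glucose pyrophosphorylases. They were grouped by family from general knowledge of rice genes, because the files give no annotation. Earlier results of these data were known when they were chosen. In ossh1, 23 could be tested: 13 rose, 4 fell and 6 missed the threshold, beside the 58.3% of all IDs that passed. The 13 include LOC_Os07g26540, which passed the filter only through ossh1. In oscct, 16 were listed and tested, of which 4 were higher and 11 lower, beside 99.2%. These calls are of listed rows. For LOC_Os04g45290, LOC_Os01g69030, LOC_Os05g44760 and LOC_Os01g53930 the listed counts were not whole numbers, so some of their reads were shared with rows outside the sum. The median log2 fold change of the tested IDs was 0.18 in ossh1 and -0.29 in oscct, beside -0.012 and -0.088 over all tested IDs.

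LOC_Os02g01590, a vacuolar invertase, which cuts sucrose inside the vacuole, had the largest change of these IDs in both mutants. It had 44, 40 and 69 counts in WT and 1026, 926 and 1007 in ossh1, or 1.37, 1.27 and 2.09 CPM in the WT libraries and 39.2, 35.6 and 36.2 CPM in the ossh1 libraries. It was 23.3-fold higher in ossh1 (log2 fold change 4.54, SE 0.11, adjusted p = 1.11e-31, edgeR), a size reached by 0.551% of tested IDs. In oscct it fell, from 1720, 1707 and 1782 counts in CK to 486, 455 and 483 (log2 fold change -1.98, SE 0.04, adjusted p = 7.5e-16, edgeR). The other vacuolar invertase, LOC_Os04g45290, was lower in both, at 0.491 of the WT level (log2 fold change -1.03, SE 0.21, adjusted p = 6.67e-05, edgeR) and 0.538 of the CK level (log2 fold change -0.90, SE 0.06, adjusted p = 2.11e-09, edgeR). In CK and oscct the counts of LOC_Os04g45290 were not whole numbers, as with 658.71 in CK replicate 1 and 425.2 in oscct replicate 1. They are those of its listed rows, and the change of the whole gene in oscct is not known. The vacuolar invertases thus moved apart in ossh1, and the listed rows of both were lower in oscct.

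Of the 5 sucrose phosphate synthases, which act in the making of sucrose, 3 were higher in ossh1 and none was lower, beside 29.2% and 29.1% of all tested IDs. Of the 4 listed in oscct 3 were lower and 1 missed the threshold, in a table where 99.2% passed and 50.3% were lower. LOC_Os11g12810 was at 39.2 ± 0.996 CPM for WT against 70.7 ± 3.57 CPM for ossh1 (SD, n = 3), a rise (log2 fold change 0.85, SE 0.05, adjusted p = 1.7e-18, edgeR), and at 106 ± 4.91 CPM for CK against 66.6 ± 1.87 CPM for oscct (SD, n = 3), a fall (log2 fold change -0.67, SE 0.05, adjusted p = 8.54e-10, edgeR). Among the cell wall invertases outside the members, LOC_Os09g08072 was 1.49-fold higher in ossh1 (log2 fold change 0.57, SE 0.06, adjusted p = 2.01e-10, edgeR) and lower in oscct (log2 fold change -0.30, SE 0.06, adjusted p = 0.000193, edgeR). With listed totals the change of LOC_Os09g08072 in oscct was -0.13 (adjusted p = 0.0465, edgeR). LOC_Os02g36700, a further sucrose transporter, fell in oscct from 83, 57 and 90 counts to 39, 32 and 38 (log2 fold change -1.18, SE 0.18, adjusted p = 1.78e-05, edgeR), and was too low to test in ossh1.

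Hexokinases and fructokinases phosphorylate the sugars that cleavage releases. Of 9 hexokinases tested in ossh1, 5 were higher and 2 lower, beside 58.3% of all IDs called, and of 5 in oscct 3 were higher and 2 lower, beside 99.2%. The 2 lower in oscct changed little, by -0.23 (LOC_Os05g44760) and -0.10 (LOC_Os01g53930) log2 units. The median over all tested IDs in oscct was -0.088, and 0.08 with listed totals. SUT1, as an example, moved from -0.40 to -0.23 with those totals, so the sizes of small changes depend on the scaling. The directions of these 2 hexokinases under listed totals are not given here. LOC_Os07g26540, counted among the 5 hexokinases higher in ossh1, had 0, 0 and 4 counts in WT and 22, 13 and 16 in ossh1 (log2 fold change 3.82, SE 0.71). It passed the filter through ossh1 alone, so its change and its call are given as a description only. Its log2 fold change was 7.20 without WT replicate 3, the only WT library with reads. That value depends on the prior count of the fit and is no bound. LOC_Os05g09500 fell in ossh1 (log2 fold change -0.56, SE 0.08, adjusted p = 8.93e-08, edgeR). LOC_Os01g71320 rose in oscct from 280, 309 and 290 counts to 594, 560 and 581 (log2 fold change 0.87, SE 0.06, adjusted p = 2.93e-09, edgeR). The 2 fructokinases moved apart in oscct: LOC_Os01g66940 was at 184 ± 6.14 CPM for CK against 86.1 ± 2.52 CPM for oscct (SD, n = 3), a fall (log2 fold change -1.10, SE 0.04, adjusted p = 2.46e-13, edgeR). LOC_Os08g02120 was at 40.2 ± 1.91 CPM for CK against 85.3 ± 6.17 CPM for oscct (SD, n = 3), a rise (log2 fold change 1.08, SE 0.06, adjusted p = 5.7e-11, edgeR).

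**Figure D4:**
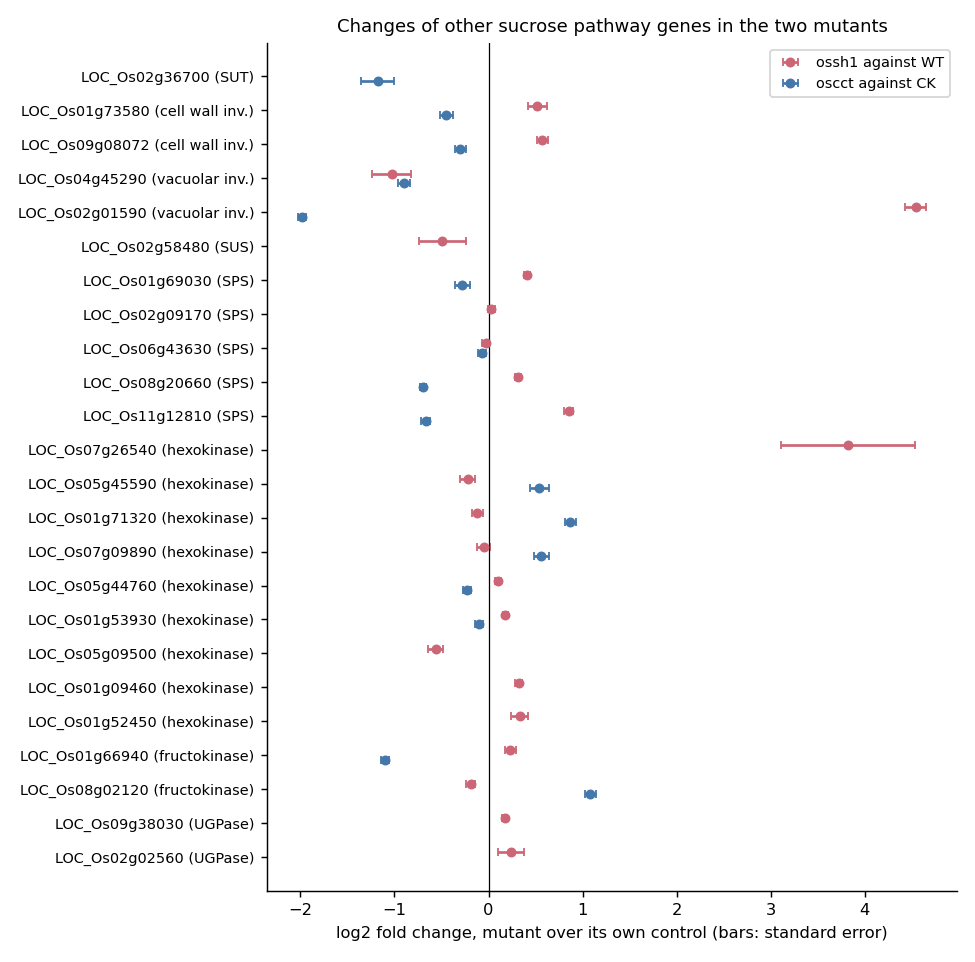
Log2 fold change of the other sucrose pathway IDs with enough counts to test in ossh1 against WT or in oscct against CK, with bars for the standard error and the family in brackets (inv., invertase; SPS, sucrose phosphate synthase; UGPase, UDP-glucose pyrophosphorylase). LOC_Os02g01590 lies at 4.54 in ossh1 and -1.98 in oscct, farther from 0 than any other ID plotted for the same mutant.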

How the data were processed

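Per the submitters' processing notes, the tools were HISAT2, DESeq2 and RSEM 1.3.1, and IRGSP-1.0 was the build; no role is stated for any of them. The authors deposited one table of whole-number read counts for WT and ossh1 (55986 IDs) and one of estimated counts for CK and oscct (13301 rows, 11688 IDs), per the file headers and values. The step that selected the listed rows, the use of strand and the treatment of reads that match several gene copies are not given in the sources used here.

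Rows of one ID were summed and rounded. Mutant and control of each table were fitted together with edgeR 4.0.16 under R 4.3.3, using filterByExpr, TMM factors, two-sided quasi-likelihood tests on the whole table, Benjamini-Hochberg adjustment over all tested IDs and a threshold of 0.05. SE is the log2 fold change divided by the root of the F statistic. The difference between mutants was a contrast over IDs in both tables, scaled within each. Per the labels, a replicate is a pool of plants. Replicates of one group differed by 1.71 to 4.46 in chi-square per degree of freedom, more than sampling noise, and the common biological coefficient of variation was 4.32% (ossh1) and 3.03% (oscct).

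Alternatives were a replicate block, RLE, library totals, no filter, DESeq2 1.42.0, limma-voom (limma 3.58.1), the most abundant row and each library left out; separate fits of rows were added after seeing the data. On simulated data with 200 changed IDs, the ossh1 fit found 93% of the 1.5-fold and 99% of the 2-fold ones, the oscct fit 95% and 99%, and the difference 83% and 95%, with 8, 8 and 11 false calls. The changed IDs had a mean count of at least 50, and all others were left unchanged. In the data 58.3% (ossh1) and 99.2% (oscct) of tested IDs passed, so these shares and false calls do not carry over to the fits reported here. The share of 83% fell short of the recovery limit first set, which was then replaced by checks of bias, sign and false calls.

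The members and lists were chosen with earlier results of these data known. Named outside the members were, for each comparison, the 6 pathway IDs past the test with the largest changes. Pathway IDs whose listed counts were not whole numbers and the hexokinases lower in oscct were named as well. The reference table of names is of another assembly: it holds all 10 member names and 0 of the member IDs, so names follow the list of members, and neither coordinates nor sequences are given. Figures were drawn with matplotlib 3.10.9.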

Additional observations from a re-analysis of the deposited data

Results flagged for a closer look

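The change in oscct minus the change in ossh1, in log2 units, differed from 0 in the edgeR test of the difference for the 7 members tested in both comparisons. It was 4.23 for SUS1, with only the listed rows of oscct in the sum. For SUS2 it was 0.69 (SE 0.04, adjusted p = 2.56e-14, edgeR), and for SUS4 -1.05. SUS3, at 3.88 (SE 0.64), is given as a description only: it passed the filter through WT and ossh1 alone, rests on 3 counts in CK and 28 in oscct, and came to 4.79 without CK replicate 1, 3.32 without CK replicate 3 and 3.36 without oscct replicate 2. Among transporters the difference was -1.20 for SUT2, -0.74 for SUT4 and -0.19 (SE 0.05, adjusted p = 0.000619, edgeR) for SUT1. CIN1 gave 0.35 (SE 0.06, adjusted p = 4.62e-06, edgeR).

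Outside the members, the difference was -6.52 (SE 0.11, adjusted p = 1.1e-24, edgeR) for the vacuolar invertase LOC_Os02g01590 and -1.52 (SE 0.07, adjusted p = 2.99e-16, edgeR) for the sucrose phosphate synthase LOC_Os11g12810. The cell wall invertase LOC_Os09g08072 gave -0.87 (SE 0.08, adjusted p = 9.33e-10, edgeR). The hexokinase LOC_Os01g71320 gave 0.99 (SE 0.08, adjusted p = 8.02e-11, edgeR). The fructokinases gave -1.33 (SE 0.06, adjusted p = 1.02e-15, edgeR) for LOC_Os01g66940 and 1.27 (SE 0.09, adjusted p = 1.65e-12, edgeR) for LOC_Os08g02120. Not past this test were LOC_Os04g45290 (0.13, SE 0.18, adjusted p = 0.517, edgeR) and LOC_Os02g36700 (0.96, SE 0.85, adjusted p = 0.303, edgeR). Of the 16 pathway IDs tested for the difference, 13 passed. Of all IDs tested, nearly all of which differ between CK and oscct, 80.4% passed.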

How the results depend on the processing

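The counts of IDs past the threshold in the 3 comparisons and the counts of members called in each direction stayed within 1.5 times their reported values under every alternative run. With each library left out in turn they ranged from 12250 to 12750 IDs for ossh1, 11336 to 11390 for oscct and 9205 to 9279 for the difference. The replicate numbers did not pair the libraries (correlations of same-numbered deviations from -0.077 to 0.035), and a replicate block gave 12971, 11413 and 9317 IDs and changed no call of a member. Library totals made 38.6% of the calls in ossh1 higher instead of 50.1%, and 61.8% instead of 50.8% for the difference, whose median over all IDs moved from 0.024 to 0.289. With those totals CIN1 in ossh1 went to -0.08 and the SUT1 difference between mutants to 0.07 (adjusted p = 0.148, edgeR), each with the sign turned. Also with totals, LOC_Os01g66940 in ossh1 lost its call (0.13, adjusted p = 0.0599, edgeR) and LOC_Os01g71320 gained one (-0.22, adjusted p = 0.00126, edgeR). With libraries left out, CIN1 in ossh1 ranged from -0.01 to 0.04 and the LOC_Os04g45290 difference, not past its test, from -0.02 to 0.35. The causes were not tested. Without the filter, SUS3 in oscct came to 2.97 (SE 0.75) and CIN3 in ossh1 to -1.46 (SE 1.82). Few counts limit the precision for CIN2, CIN3 and, in oscct, SUS3; low expression and depth were not told apart. Where the fit of a comparison left out 1 library, the remaining 2 of that group shared the spread estimated over all libraries kept.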
